A study of Mus musculus with 28 samples.

Results

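The 9 genes described here are the corticosteroid receptors Nr3c1 and Nr3c2 and 7 genes commonly used as readouts of glucocorticoid action, Fkbp5, Sgk1, Tsc22d3, Zbtb16, Per1, Arrdc2 and Pdk4. They were chosen as a list of symbols and were all found among the 48709 gene identifiers of the count tables. RNA came from the CA1 field of the hippocampus, dissected from mice 3 months old. The groups were 9 libraries from CamkdeltaC transgenic mice that drank vorinostat, 9 from CamkdeltaC transgenic mice that drank vehicle, and 10 from wildtype littermates that drank vehicle. Vorinostat, also called SAHA, inhibits histone deacetylases, and it was given in drinking water for 4 weeks from 2 months of age. CamkdeltaC is a form of the calmodulin kinase CaMKII, and its transgene, driven in heart muscle, is known to give mice heart failure. No group of wildtype mice given vorinostat was analysed here, so the drug was compared within transgenic mice only. Both sexes were used. Xist, the RNA of the inactive X chromosome, was above 100 CPM in 5 of 9 vorinostat, 3 of 9 transgenic vehicle and 6 of 10 wildtype libraries.

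Corticosterone, the main glucocorticoid of the mouse, is released from the adrenal gland in daily pulses and in stress. It binds the mineralocorticoid receptor Nr3c2 with high affinity and the glucocorticoid receptor Nr3c1 with lower affinity, and hippocampal neurons are known for carrying both. The receptors are held by HSP90 and its cochaperones until they bind hormone, then enter the nucleus and bind response elements built from inverted hexamers, where many of the targets below are known to be induced. The hormone is known to change with the time of day and with handling.

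The response element carries this regulation in DNA, so the 300-base promoters of the members (250 bases before the start site to 50 after it, RefSeq, GRCm38.p6) were searched on both strands for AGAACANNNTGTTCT. They were also searched for the single hexamer AGAACA or its reverse complement TGTTCT, which overlaps the full element, and for the E-box CACGTG, which the circadian clock factors are known to bind. The table gave 15 promoters for 7 members, and Nr3c1 and Zbtb16 are named only. Shown are the Sgk1 window that holds the full element and, for each other member with any match, the window that holds it, since these are the letters through which hormone and clock are known to act. Sgk1 is shown at chr10:21993640-21993939 on the plus strand, Tsc22d3 at chrX:140600473-140600772 on the minus strand, Per1 at chr11:69098699-69098998 on the plus strand and Fkbp5 at chr17:28486100-28486399 on the minus strand. Each is written 5′ to 3′ in the direction of transcription, and capitals mark the matches.
Sgk1: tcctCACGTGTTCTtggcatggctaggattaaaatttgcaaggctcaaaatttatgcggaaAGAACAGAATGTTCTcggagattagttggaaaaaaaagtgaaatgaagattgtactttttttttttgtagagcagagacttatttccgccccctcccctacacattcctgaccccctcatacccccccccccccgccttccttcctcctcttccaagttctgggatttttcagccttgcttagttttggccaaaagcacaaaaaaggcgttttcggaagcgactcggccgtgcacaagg
Tsc22d3: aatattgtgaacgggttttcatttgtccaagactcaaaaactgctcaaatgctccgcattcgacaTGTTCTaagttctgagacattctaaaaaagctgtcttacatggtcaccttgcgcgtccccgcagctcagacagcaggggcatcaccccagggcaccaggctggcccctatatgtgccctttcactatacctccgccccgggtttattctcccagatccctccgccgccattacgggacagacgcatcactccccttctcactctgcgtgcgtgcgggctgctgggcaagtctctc
Per1: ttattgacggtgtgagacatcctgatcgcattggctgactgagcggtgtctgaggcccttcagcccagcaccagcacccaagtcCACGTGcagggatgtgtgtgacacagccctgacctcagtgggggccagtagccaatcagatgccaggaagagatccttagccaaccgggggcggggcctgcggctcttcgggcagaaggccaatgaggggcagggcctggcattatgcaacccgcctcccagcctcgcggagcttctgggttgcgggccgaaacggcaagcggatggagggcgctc
Fkbp5: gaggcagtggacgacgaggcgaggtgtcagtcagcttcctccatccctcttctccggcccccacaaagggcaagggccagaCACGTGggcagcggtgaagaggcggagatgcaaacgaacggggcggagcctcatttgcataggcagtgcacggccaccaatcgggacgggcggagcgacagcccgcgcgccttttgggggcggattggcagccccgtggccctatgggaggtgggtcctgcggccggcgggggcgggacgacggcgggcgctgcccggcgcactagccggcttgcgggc
The Sgk1 promoter held the full element without a mismatch, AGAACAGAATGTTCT, at chr10:21993701-21993715, from 189 to 175 bases before the start site. Of all 32851 promoters in the table, 3 held it without a mismatch and 54, or 0.164%, with up to 1 mismatch at its 12 fixed letters. The same Sgk1 window held an E-box that overlapped a further TGTTCT, from 246 to 237 bases before the start site. Tsc22d3 held a single TGTTCT, from 185 to 180 bases before its start site, and 19.0% of all promoters held that hexamer on either strand. Per1 and Fkbp5 each held an E-box, found in 7.15% of all promoters. Of the other Sgk1 windows 2 held a single hexamer, and these letters were not found in the windows of Nr3c2, Arrdc2 or Pdk4. The other windows of Tsc22d3 and Per1 held no match either. The shares are per promoter, and a gene with several windows had more places for a match.

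All 9 genes were well counted. The libraries held 20230085 to 33191857 counts over all genes, and the lowest count of a member in any library was 185, for Arrdc2. Levels are given as CPM, the counts in proportion to the library's total after scaling by trimmed means of M values (TMM), and, to compare genes, as CPM per kilobase of exon. The length is that of all annotated exons of a gene joined, not of the transcripts expressed, so the order of genes depends on the annotation. By CPM per kilobase, Nr3c2 was the most abundant, at 28.6 ± 4.22 (SD, n = 28), and was above the next gene in 27 of 28 libraries. Per1 at 18.9 ± 3.94, Tsc22d3 at 18.4 ± 2.82, Zbtb16 at 17.7 ± 2.59, Sgk1 at 15.2 ± 4.46 and Nr3c1 at 14.7 ± 1.42 CPM per kilobase (SD, n = 28 each) followed. Neighbours in that run changed places between libraries: Tsc22d3 was above Zbtb16 in 14 of 28 and Sgk1 above Nr3c1 in 16 of 28. Fkbp5 at 5.35 ± 0.763, Pdk4 at 4.74 ± 0.723 and Arrdc2 at 3.45 ± 0.640 CPM per kilobase (SD, n = 28 each) were lower. Nr3c1 was above Fkbp5 in all 28 libraries and Pdk4 above Arrdc2 in 27 of 28. Nr3c2 shares 247 exon bases with the antisense gene Gm10649, which took 2210 counts over all libraries, and without strand those reads cannot be told apart.

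In 4 libraries, wildtype vehicle 2 and vorinostat 6, 7 and 9, mitochondrial genes took 6.39 to 7.48% of counts, against 2.84 to 4.11% in the other 24. The hemoglobin genes summed to 75.9 to 135 CPM in these 4, against 16.9 to 52.1 CPM in the other 24. They are marked by triangles in the plots, and values without them are given beside those they move. Of the 13 marker lists checked, all 6 CA1 pyramidal markers were detected, summing to 918 to 1360 CPM in vorinostat, 1064 to 1511 CPM in transgenic vehicle and 1073 to 1458 CPM in wildtype libraries. Markers of neighbouring fields were also present. The 6 CA2 pyramidal markers summed to 103 to 146, 109 to 173 and 104 to 183 CPM and the 6 dentate granule markers to 47.8 to 86.2, 57.5 to 121 and 41.8 to 131 CPM, in the same order of groups.

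**Figure D1:**
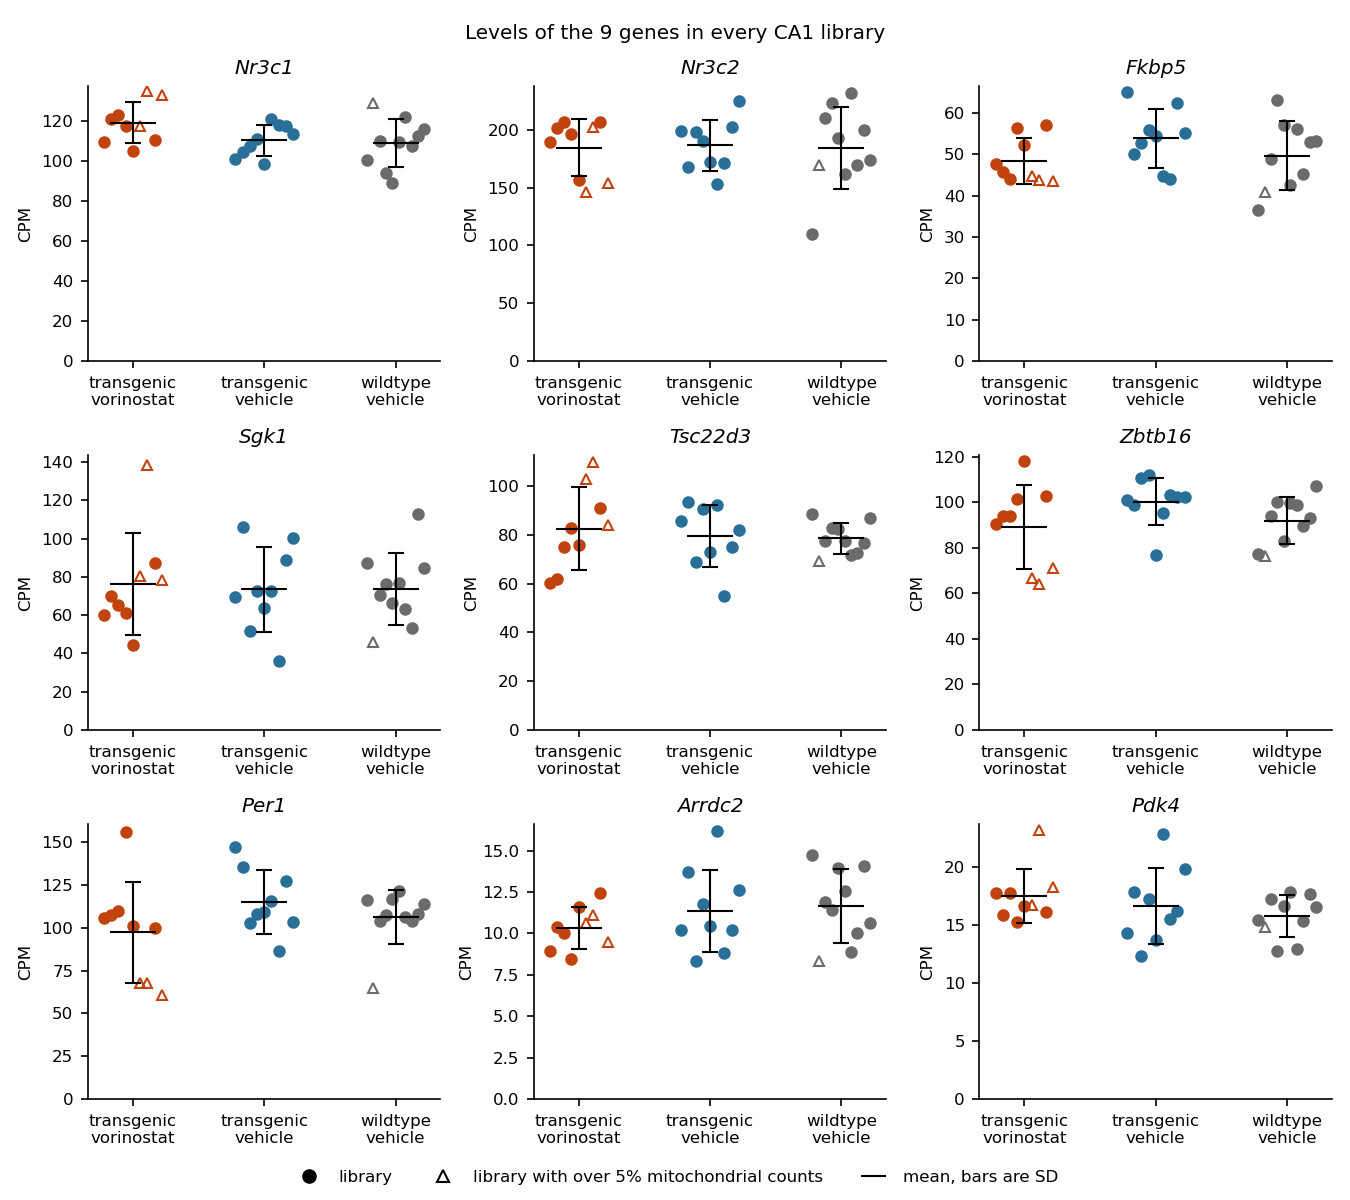
Level of each gene in CPM (y axis, from 0) in every library of the transgenic vorinostat, transgenic vehicle and wildtype vehicle groups, with bars for the mean and SD. The groups overlap for all 9 genes, Sgk1 is the most widely spread, and the 4 libraries drawn as open triangles are the lowest for Per1 and Zbtb16.

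The study asked what 4 weeks of vorinostat did to CA1 transcripts of transgenic mice, and no member passed the test in that comparison. In the edgeR quasi-likelihood test with Benjamini-Hochberg adjustment over 17009 genes and an adjusted p threshold of 0.05, 0 of 9 members and 0 genes in all (0%) were called between vorinostat and vehicle in transgenic mice. At an unadjusted p under 0.05, 0 of 9 members passed, while 2449 genes or 14.4% of those tested did. DESeq2 called 1 gene, not a member, and limma voom none, and 2517 and 2551 genes passed the unadjusted threshold in them. Without the 4 libraries the edgeR number was 664, and leaving out vorinostat 6, 7 or 9 alone also lowered it by over 1.5 times, to 1062 without vorinostat 7. With 1 library left out at a time, 0 to 2 members passed unadjusted. Whether every library is a separate mouse is not stated, and the p-values rest on the spread among libraries, which may be technical.

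The glucocorticoid receptor gene Nr3c1 had a lowest, median and highest level of 105, 118 and 135 CPM with vorinostat, 98.5, 111 and 121 CPM in transgenic vehicle and 89.0, 110 and 129 CPM in wildtype libraries. The groups overlapped over most of their range. Its log2 fold change was 0.11 ± 0.06 (SE) for vorinostat against transgenic vehicle (95% interval -0.02 to 0.24, adjusted p = 0.367, edgeR), and 0.05 without the 4 libraries. The mineralocorticoid receptor gene Nr3c2, at chr8:76899442-77245012 (GRCm38, as for all positions here), had 146, 196 and 207 CPM with vorinostat, 153, 190 and 225 CPM in transgenic vehicle and 109.95, 184 and 232 CPM in wildtype libraries, again as lowest, median and highest. The wildtype group enclosed the other two. Its log2 fold change for vorinostat against transgenic vehicle was -0.02 ± 0.10 (SE), with a 95% interval of -0.23 to 0.19, and 0.04 without the 4 libraries. The ratio of Nr3c2 to Nr3c1, each per kilobase, averaged 1.85 ± 0.276 with vorinostat (SD, n = 9), 2.01 ± 0.274 in transgenic vehicle (n = 9) and 2.02 ± 0.463 in wildtype libraries (n = 10). In single libraries the ratio ran between 1.37 and 2.21, 1.50 and 2.35, and 1.29 and 2.81, in the same order of groups, and stayed above 1 in every library. Such a ratio depends on the joined exon lengths and compares transcripts, not receptor protein. In bulk tissue fewer cells of a type and less RNA per cell cannot be told apart.

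Fkbp5, at chr17:28399094-28517527, encodes the HSP90 cochaperone that lowers the receptor's affinity for hormone and is itself induced by it. It had 43.7, 45.8 and 57.2 CPM with vorinostat, 44.0, 54.4 and 65.1 CPM in transgenic vehicle and 36.6, 50.9 and 63.1 CPM in wildtype libraries, as lowest, median and highest. The vorinostat libraries lay inside the range of the wildtype libraries. The log2 fold change for vorinostat against transgenic vehicle was -0.15 ± 0.09 (SE; 95% interval -0.34 to 0.03, adjusted p = 0.378, edgeR). It came to -0.10 without the 4 libraries, in which Fkbp5 had 41.0 to 44.7 CPM.

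Sgk1, at chr10:21882184-21999903, encodes a serum and glucocorticoid regulated kinase that acts on ion channels and transporters. Its levels were 44.5, 69.8 and 139 CPM with vorinostat, 35.9, 72.7 and 106 CPM in transgenic vehicle and 45.8, 73.4 and 113 CPM in wildtype libraries, as lowest, median and highest. The highest library, vorinostat 7, was 3.86 times the lowest, transgenic vehicle 7. This was the widest spread of the 9 genes. Its biological coefficient of variation, edgeR's estimate of the spread between libraries of a group, was 27.8%, which is 2.50 times the value edgeR's trend gives for a gene of its level and higher relative to that trend than in 99.1% of genes tested. For comparison, Nr3c1 had 9.48%. The log2 fold change for vorinostat against transgenic vehicle was 0.05 ± 0.19 (SE), with a 95% interval of -0.34 to 0.44, the widest of the 9. Without the 4 libraries it was -0.19, and no call was made either way. Tsc22d3, at chrX:140539528-140600659, encodes GILZ, a leucine zipper protein known as a mediator of glucocorticoid action. It had 60.0, 82.6 and 110 CPM with vorinostat, 54.7, 81.9 and 93.5 CPM in transgenic vehicle and 69.4, 77.4 and 88.4 CPM in wildtype libraries. Vorinostat 7 was again the highest and transgenic vehicle 7 the lowest. Its log2 fold change was 0.05 ± 0.10 (SE) against transgenic vehicle and -0.10 without the 4 libraries.

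Zbtb16 and Per1 were at their lowest in the same libraries. Zbtb16, at chr9:48654297-48836222, encodes the zinc finger repressor PLZF. It had 64.1, 93.9 and 118 CPM with vorinostat, 76.7, 102 and 112 CPM in transgenic vehicle and 76.4, 93.4 and 107 CPM in wildtype libraries. Per1, at chr11:69095217-69109960, encodes a repressor of the circadian clock that hormone and neuronal activity both induce. It had 60.6, 101 and 156 CPM with vorinostat, 86.7, 109 and 147 CPM in transgenic vehicle and 64.7, 108 and 121 CPM in wildtype libraries. For both genes the lowest 4 of the 28 libraries were the 4 with high mitochondrial counts. Per1 had 60.6 to 67.8 CPM in those and 86.7 to 156 CPM in the other 24, with no overlap. Zbtb16 had 64.1 to 76.4 CPM in those and 76.7 to 118 CPM in the other 24. The share of all genes that separate these libraries in the same way was not counted. The separation is therefore not shown to be particular to Per1 or Zbtb16. The log2 fold changes for vorinostat against transgenic vehicle were -0.17 ± 0.10 for Zbtb16 and -0.24 ± 0.14 for Per1 (SE; adjusted p = 0.368 and 0.367, edgeR). Without the 4 libraries they were -0.00 and -0.03. Of these 4 libraries 3 belong to the vorinostat group.

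Arrdc2, at chr8:70835129-70839720, encodes an arrestin domain protein. It had 8.48, 10.4 and 12.4 CPM with vorinostat, 8.36, 10.4 and 16.2 CPM in transgenic vehicle and 8.30, 11.7 and 14.8 CPM in wildtype libraries. The lowest values were alike and the highest came from the vehicle groups. Its log2 fold changes were -0.14 ± 0.12 against transgenic vehicle and -0.17 ± 0.11 against wildtype (SE), with a 95% interval of -0.41 to 0.06 for the second. Without transgenic vehicle 6, its highest library, the first was -0.06. Pdk4, at chr6:5483351-5496309, encodes a kinase that inhibits pyruvate dehydrogenase and so spares glucose. It had 15.3, 16.8 and 23.2 CPM with vorinostat, 12.4, 16.2 and 22.9 CPM in transgenic vehicle and 12.8, 16.1 and 17.9 CPM in wildtype libraries. Its log2 fold change was 0.07 ± 0.10 (SE) for vorinostat against transgenic vehicle and -0.01 without the 4 libraries.

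Between transgenic and wildtype mice on vehicle, the comparison of the genotype, no member passed the test. In edgeR 0 of 9 members and 0 of 17009 genes (0%) were called, and 227 genes (1.33%) and 0 members had an unadjusted p under 0.05. DESeq2 and limma voom also called none, and 205 and 227 genes passed unadjusted. The log2 fold changes lay between -0.04 for Arrdc2 and 0.13 for Zbtb16. Fkbp5 and Per1 had 0.12 ± 0.09 and 0.11 ± 0.13, Nr3c1 and Nr3c2 0.02 ± 0.06 and 0.02 ± 0.10, and Sgk1 0.00 ± 0.19 on the negative side (SE each). The 95% intervals of all members but Sgk1 and Per1 stayed between -0.27 and 0.32, and those of Sgk1 and Per1 between -0.38 and 0.39. Per1 was at 0.05 without the 4 libraries and likewise without wildtype vehicle 2 alone, and at 0.06 without transgenic vehicle 1. Fkbp5 was at 0.07 without wildtype vehicle 1. With the 4 libraries left out, Nr3c1 had 0.05, Sgk1 -0.06 and Arrdc2 -0.08. A missing call does not show equal levels, and the intervals give the sizes of change that these libraries leave possible.

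The vorinostat group was also set against wildtype vehicle, which differs in both genotype and drug. Again edgeR called 0 of 9 members and 0 of 17009 genes (0%), and DESeq2 and limma voom called none. At an unadjusted p under 0.05 there was 1 member, Nr3c1, among 2141 genes or 12.6% of those tested in edgeR, 2206 in DESeq2 and 2268 in limma voom. The edgeR number was 3765 without wildtype vehicle 2, lower by over 1.5 times without wildtype vehicle 5 or vorinostat 6 or 9, 1066 without vorinostat 7 and 721 without the 4. Leaving out 1 library at a time, 0 to 1 members passed unadjusted. Nr3c1 had a log2 fold change of 0.13 ± 0.06 (SE; 95% interval 0.00 to 0.25, adjusted p = 0.393, edgeR). It was 0.10 without the 4 libraries, where 3 of the 4 highest Nr3c1 values of the series lie. The other members lay between -0.17 for Arrdc2 and 0.15 ± 0.09 for Pdk4, with Per1 at -0.13 ± 0.13 and Sgk1 at 0.05 ± 0.19 (SE). Without the 4 libraries Pdk4 had 0.06, Per1 0.03, Zbtb16 0.10, Tsc22d3 -0.10 and Sgk1 -0.25. Without vorinostat 7 alone Pdk4 had 0.09, and Per1 ranged from -0.24 without vorinostat 4 to -0.06 without vorinostat 9. This comparison shares its vorinostat libraries with the first and its wildtype libraries with the second, so the 3 are not independent.

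**Figure D2:**
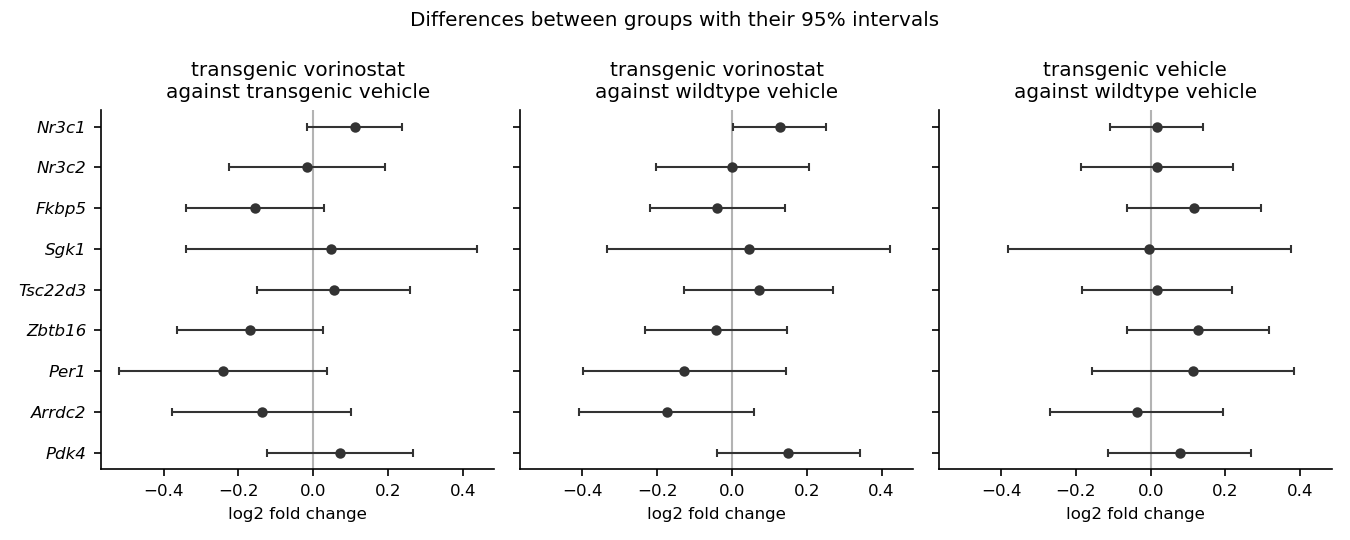
Log2 fold change (x axis) of each gene in the 3 comparisons, with 95% intervals from edgeR over 28 libraries. All intervals but that of Nr3c1 for vorinostat against wildtype vehicle include 0, and that of Sgk1 is the widest in each comparison.

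The machinery around the receptors was read from a list of 19 chaperones, cofactors and steroid enzymes, of which 18 passed the count filter and Hsd11b2 did not. None passed the test over all genes in any of the 3 comparisons. For vorinostat against transgenic vehicle, 7 had a positive and 11 a negative log2 fold change, with a median of -0.04, beside 50.9% positive and a median of 0.00 over all genes. At an unadjusted p under 0.05 there were 2 of 18, beside 14.4% of all genes. The highest were Hsp90aa1, the inducible HSP90 that holds the receptors, at 0.22 ± 0.08, and the HSP40 cochaperone Dnaja1 at 0.20 ± 0.07 (SE; adjusted p = 0.345 for both, edgeR). Among the negative values was H6pd, which supplies the cofactor of the corticosterone-regenerating enzyme, at -0.15 ± 0.09 (SE). For vorinostat against wildtype 8 were positive and 10 negative, with Dnaja1 at 0.18, Hsp90aa1 at 0.17 and H6pd at -0.10. Between transgenic and wildtype on vehicle 9 were positive and 9 negative, and the list ran from -0.05 for Hsp90aa1 and -0.04 for Hspa8 to 0.13 for Hsd11b1, the enzyme that regenerates corticosterone. Over the other 24 libraries, an alternative chosen for the lists after seeing the data, 11 of 18 were positive for vorinostat against transgenic vehicle (median 0.03) and 13 of 18 for vorinostat against wildtype (median 0.04), so the sign of the median turned in both.

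Of 22 other genes known to be induced by glucocorticoids, 21 were tested and Lcn2 was filtered out. None was called in any comparison. Over all genes, 50.9% were positive for vorinostat against transgenic vehicle, 50.1% for transgenic against wildtype on vehicle and 51.7% for vorinostat against wildtype. For vorinostat against transgenic vehicle 5 were positive and 16 negative, with a median of -0.07, and the extremes were Cdkn1a at -0.22 ± 0.18 and Irs2 at -0.20 ± 0.11 against Sult1a1 at 0.18 ± 0.13 and Nfkbia at 0.08 ± 0.11 (SE). Transgenic against wildtype on vehicle gave 16 positive and 5 negative with a median of 0.04, from Hif3a at -0.09 and Map3k6 at -0.08 to Dusp1 at 0.21 and Plin4 at 0.33. For vorinostat against wildtype 9 were positive and 12 negative with a median of -0.02, from Irs2 at -0.14 and Gpd1 at -0.12 to Plin4 at 0.17 and Sult1a1 at 0.22. With the 4 libraries left out, the counts were 4 positive and 17 negative, 15 and 6, and 8 and 13, in the same order. The first and second of these comparisons share the transgenic vehicle libraries, with opposite signs.

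The 17 paralogs of the members gave no call either. For vorinostat against transgenic vehicle 6 were positive and 11 negative, with a median log2 fold change of -0.01, from Pdk2 at -0.18 ± 0.08 and Per3 at -0.14 ± 0.07 to Pdk3 at 0.12 ± 0.05 and Sgk3 at 0.16 ± 0.07 (SE; smallest adjusted p = 0.345, edgeR). Pdk2 and Pdk3 are kinases of the same enzyme complex as Pdk4 and lay on opposite sides. Against wildtype, the vorinostat values were positive for 8 and negative for 9 and ran from -0.20 for Pdk2 and -0.15 for Arrdc1 to 0.07 for Arrdc3 and 0.19 for Sgk3. On vehicle, transgenic against wildtype also gave 8 positive and 9 negative, from -0.08 for Arrdc4 and Arrdc1 to 0.07 for Per2 and 0.12 for Sgk2.

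Per1 belongs to the clock and also to the genes that neuronal activity induces, so both lists were read beside it. Of 17 other clock genes, 5 were positive and 12 negative for vorinostat against transgenic vehicle, with a median of -0.09 and no call. At an unadjusted p under 0.05 there were 4 of 17 (edgeR), beside 14.4% of all genes, of which 50.9% were positive. Nr1d1 at -0.21 ± 0.10 and Cry2 at -0.15 ± 0.07 were the lowest, and Nr1d2 at 0.18 ± 0.09 and Clock at 0.15 ± 0.07 the highest (SE; adjusted p = 0.345 for all, edgeR). Against wildtype, the vorinostat values were again positive for 5 and negative for 12 and ran from Dbp at -0.22 and Nr1d1 at -0.21 to Clock at 0.17 and Nr1d2 at 0.21. Transgenic against wildtype on vehicle gave 11 positive and 6 negative, from Ciart at -0.10 and Dbp at -0.08 to Bhlhe40 at 0.08 and Hlf at 0.09. Over the other 24 libraries 6 clock genes were positive and 11 negative for vorinostat against transgenic vehicle, with a median of -0.02, and 10 were positive and 7 negative against wildtype. The 15 immediate early genes, which synaptic activity induces within minutes, had negative values for vorinostat against transgenic vehicle over all libraries, with a median of -0.12 and none called. That direction rested on the 4 libraries, since without them 11 of 15 were positive with a median of 0.03. Over all libraries the dentate granule markers had 0 of 6 positive (median -0.36) in this comparison and 5 of 6 (median 0.22) for transgenic against wildtype on vehicle. For vorinostat against wildtype they had 2 of 6 positive (median -0.21), where the immediate early genes had 10 of 15 (median 0.06). Without the 4 libraries the dentate markers had 1 of 6 (median -0.39), 5 of 6 (median 0.19) and 1 of 6 (median -0.24), in the same order. The CA1 and CA2 pyramidal markers each had 1 of 6 positive for vorinostat against transgenic vehicle over all libraries (medians -0.16 and -0.33). The part of these markers in the values of the immediate early genes was not tested. Over all libraries the immediate early genes ran from Egr4 at -0.40 ± 0.19 and Fosb at -0.27 ± 0.14 to Npas4 at -0.04 and Btg2 at -0.01 for vorinostat against transgenic vehicle. For transgenic against wildtype on vehicle 14 of 15 were positive with a median of 0.19, beside 50.1% positive and a median of 0.00 over all genes. The values there ran from Jun at 0.00 on the negative side and Nr4a3 at 0.09 to Fos at 0.65 ± 0.31 and Egr2 at 0.83 ± 0.38 (SE). At an unadjusted p under 0.05 there were 3 of 15 in that comparison (edgeR), beside 1.33% of all genes, and none was called. For vorinostat against transgenic vehicle there was 1 of 15, beside 14.4% of all genes. For vorinostat against wildtype 10 of 15 were positive, from Jun at -0.12 and Fosb at -0.09 to Fos at 0.56 and Egr2 at 0.73. Over the other 24 libraries 14 of 15 were positive both for transgenic against wildtype on vehicle and for vorinostat against wildtype. Their medians were 0.15 and 0.19, beside 52.7% and 49.5% positive over all genes.

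The genes also varied between libraries of the same group, and some pairs varied together. Likeness was measured as Pearson's r and Spearman's rho of log2 CPM after each group's mean was subtracted, with permutation within groups (100000 resamples, two-sided) and Benjamini-Hochberg adjustment over the 36 pairs. Since 4 libraries are set apart by their mitochondrial share, values over the other 24 are given first. There, 3 pairs passed: Nr3c2 with Fkbp5 at r = 0.69 (rho = 0.62, adjusted permutation p = 0.0140 and 0.0380), Arrdc2 with Pdk4 at r = 0.69 (rho = 0.61, adjusted permutation p = 0.0140 and 0.0380) and Tsc22d3 with Arrdc2 at r = 0.62 (rho = 0.60, adjusted permutation p = 0.0270 and 0.0380). Over all 28 libraries 10 pairs passed. The permutation sets r against 0, while many genes varied together across these libraries. Over 24 libraries the 95th percentile of r with all 17008 other genes was 0.66 for Nr3c2 and 0.58 for Fkbp5. It was 0.42 for Arrdc2, 0.40 for Pdk4 and 0.34 for Tsc22d3. The r of each passing pair over 24 libraries lay above this percentile for both of its genes, for Nr3c2 only narrowly. By the definition of the percentile, many other genes lay above it too, so a passing pair is not shown to be particular to its 2 genes.

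Of the 6 pairs among Sgk1, Tsc22d3, Arrdc2 and Pdk4, 5 passed over 28 libraries and 2 over 24, and Tsc22d3 with Pdk4 passed in neither, at r = 0.42 and 0.31 (rho = 0.42 and 0.27, adjusted permutation p = 0.116 and 0.446 for r). Over all 28 libraries, Sgk1 had r = 0.70 with Tsc22d3 (rho = 0.72, adjusted permutation p = 0.00396 and 0.00144), 0.58 with Arrdc2 (rho = 0.61, adjusted permutation p = 0.0129 and 0.0114) and 0.52 with Pdk4 (rho = 0.53, adjusted permutation p = 0.0385 and 0.0341). Over the 24 libraries these were r = 0.60, 0.57 and 0.40, with adjusted permutation p = 0.0528, 0.0606 and 0.354, and only the rho of Sgk1 and Arrdc2 passed, at 0.59 (adjusted permutation p = 0.0417). The relation of Sgk1 and Tsc22d3 rests partly on transgenic vehicle 7 and vorinostat 7, the lowest and highest for both, since r was 0.49 without them (adjusted permutation p = 0.0507). Within groups it was 0.68 in vorinostat, 0.80 in transgenic vehicle and 0.63 in wildtype libraries. Without the same 2 libraries Sgk1 had 0.56 with Arrdc2 and 0.42 with Pdk4 (adjusted permutation p = 0.0432 and 0.148). For Arrdc2 and Pdk4, r was 0.15, 0.89 and 0.54 in the same order of groups, and 0.55 without transgenic vehicle 6 and wildtype vehicle 2 (adjusted permutation p = 0.0503). For Tsc22d3 and Arrdc2 it was 0.39, 0.79 and 0.68 by group, and 0.50 without transgenic vehicle 7 and vorinostat 1 (adjusted permutation p = 0.0432).

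Fkbp5, a target of the same receptors, passed with none of those 4 genes. Over the 24 libraries its r was 0.18 with Sgk1, 0.24 with Tsc22d3, -0.22 with Arrdc2 and -0.38 with Pdk4. It passed with the mineralocorticoid receptor gene, at r = 0.67 over 28 libraries (rho = 0.57, adjusted permutation p = 0.00540 and 0.0177) and 0.57 without wildtype vehicle 1 and vorinostat 6 (adjusted permutation p = 0.0432). Wildtype vehicle 1 was the lowest of all 28 libraries for both Nr3c2 and Fkbp5. By group, r was 0.22 in vorinostat, 0.70 in transgenic vehicle and 0.85 in wildtype libraries. The difference between groups was not tested. With Nr3c1, Fkbp5 had r = -0.27 over 24 libraries, and the receptor genes had 0.16 with each other, neither past the threshold.

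The relation of Zbtb16 and Per1 rested on the 4 libraries that were lowest for both. It was r = 0.58 over 28 libraries (rho = 0.38, adjusted permutation p = 0.0351 and 0.202), 0.42 without vorinostat 6 and 7 (adjusted permutation p = 0.177) and -0.09 over the other 24 (rho = -0.27, adjusted permutation p = 0.760 and 0.578). Likewise Nr3c1 with Per1 was at r = -0.50 over 28 libraries and -0.13 over 24, and Fkbp5 had 0.46 with Zbtb16 and 0.44 with Per1 over 28 libraries and 0.35 and 0.27 over 24, where none of these 3 passed. Their rho over 28 libraries was -0.42, 0.49 and 0.36, with adjusted permutation p = 0.0351, 0.0351 and 0.0422 for r and 0.103, 0.0487 and 0.194 for rho. Without the 2 libraries farthest in the first gene, r was -0.40, 0.41 and 0.57, and the relation of Fkbp5 and Per1 passed (adjusted permutation p = 0.0432). Over 28 libraries the 95th percentile of r with all other genes was 0.76 for Per1, 0.73 for Zbtb16 and 0.53 for Fkbp5. The positive r values among these genes over 28 libraries lay below it. Over the other 24 libraries the same percentile was 0.36 for Per1, 0.56 for Zbtb16 and 0.58 for Fkbp5.

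**Figure D3:**
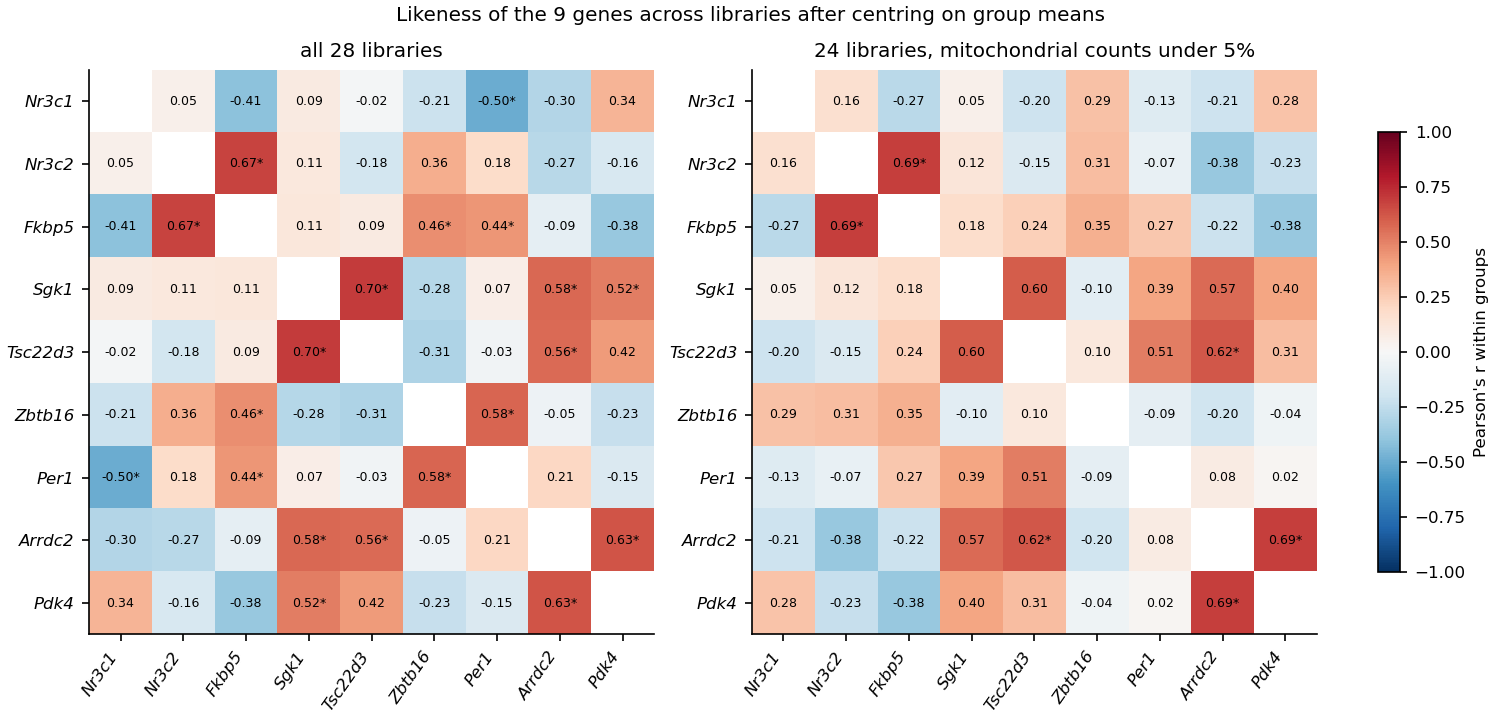
Pearson's r (colour and number) of each pair of genes across libraries after subtracting group means, over all 28 libraries on the left and the 24 with under 5% mitochondrial counts on the right, with stars for an adjusted permutation p under 0.05. Nr3c2 with Fkbp5 at 0.69, Arrdc2 with Pdk4 at 0.69 and Tsc22d3 with Arrdc2 at 0.62 keep their stars on the right.

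**Figure D4:**
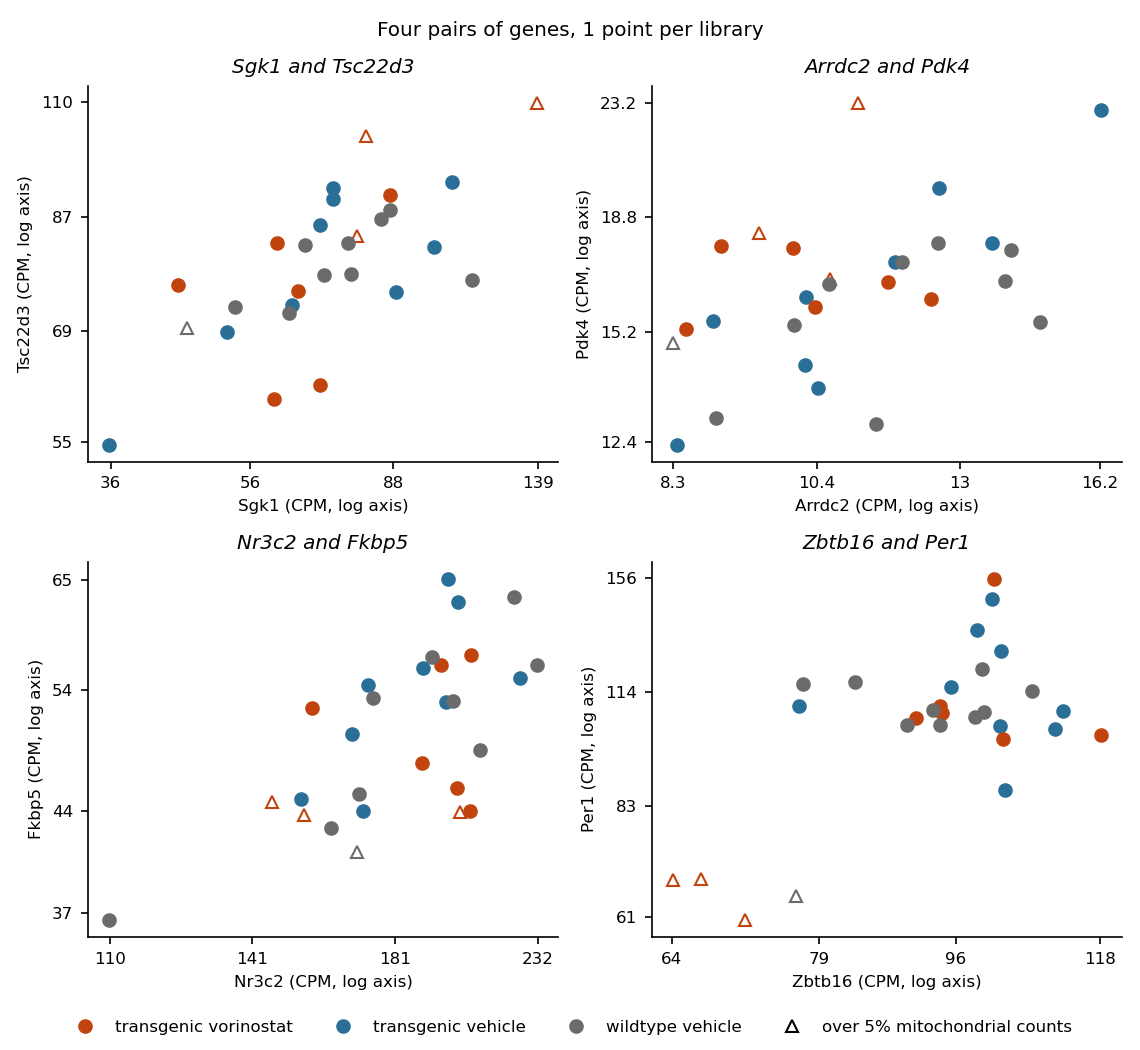
Levels in CPM on log axes of Sgk1 and Tsc22d3, Arrdc2 and Pdk4, Nr3c2 and Fkbp5, and Zbtb16 and Per1, with 1 point per library coloured by group. Open triangles are the 4 libraries with over 5% mitochondrial counts, which sit apart at the lower left for Zbtb16 and Per1 while 1 of them, vorinostat 7, is the highest for Sgk1, Tsc22d3 and Pdk4.

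The genes outside the list whose log2 CPM was most like each member's, over 28 libraries and by Pearson's r after subtracting group means, also differed from member to member. Nfkbia, a glucocorticoid-induced inhibitor of NF-kB, was nearest to Sgk1 of all 17008 other genes, at r = 0.86 over 28 libraries and 0.85 over 24, followed by Arl4d at 0.75 and Plekhf1 at 0.73. Arl4d also led for Arrdc2 at 0.76, followed by Lfng at 0.75 and Catsperz at 0.74. Nr3c2 was nearest to Stim2 at 0.95, the AMPA receptor gene Gria1 at 0.94 and Gm2115 at 0.93. The 10 nearest to Fkbp5 were Kcnip2 at 0.84, Wipf3 and Kirrel2 at 0.83, Lrrfip1 at 0.83, Dnah9, Thsd4, Chst1, 2010300C02Rik and Stk19 at 0.82 and Gpt2 at 0.81, and no target member was among them. For Per1 they were the histone demethylase gene Kdm6b at 0.94, Midn at 0.90 and Ranbp10 at 0.90, and over 24 libraries these had 0.86, 0.74 and 0.66. Nr3c1 was nearest to Ckap5 at 0.92, Spag9 at 0.91 and Arhgap5 at 0.89, Zbtb16 to Nhsl2 at 0.91, Zzef1 at 0.90 and Med13l at 0.90, Tsc22d3 to Rrp8 at 0.79, Rin2 at 0.75 and Srsf5 at 0.71, and Pdk4 to March10, Pmaip1 and Mgme1 at 0.64 each. Over 24 libraries Zbtb16 had 0.78, 0.78 and 0.75, Tsc22d3 0.74, 0.65 and 0.58, and Pdk4 0.62, 0.67 and 0.56 with these genes. There Srsf5 ranked 51 for Tsc22d3 and Mgme1 77 for Pdk4. The values over 28 libraries are the highest of 17008 for each member and carry no test.

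Read against the fixed lists over 24 libraries, Tsc22d3 had a positive r with all 21 of the other glucocorticoid-induced genes, Sgk1 with 20, and Fkbp5 and Per1 with 19 each. Over 28 libraries 17, 17, 17 and 14 were positive for these 4 members. The medians over 24 were 0.31, 0.25, 0.39 and 0.26 for them, beside medians over all genes of -0.01, 0.00, 0.01 and -0.01. Such medians were not particular to this list. Over 24 libraries the 4 erythroid markers, all positive, had medians of 0.33, 0.37, 0.34 and 0.38 with the same members. The 6 fibroblast markers went the other way, with medians of -0.19, -0.43, -0.35 and -0.34. Klf15, a transcription factor induced by glucocorticoids, had r = 0.84 with Tsc22d3 and 0.56 with Sgk1. For Zbtb16 the median was -0.10 with 10 of 21 positive, and 0.09 with 14 positive over 28 libraries. For Nr3c1 it was -0.08 with 6 of 21, for Nr3c2 0.16 with 14, for Arrdc2 0.18 with 15 and for Pdk4 0.11 with 13, and over 28 libraries these medians were -0.10, 0.14, 0.22 and 0.14. The listed genes vary together with each other, and Nfkbia was both a listed gene and the nearest to Sgk1, so these counts are descriptions. With the 15 immediate early genes, Per1 had a median r of 0.57 over 24 libraries, 14 of them positive, led by Egr1 at 0.85 and Nr4a1 at 0.83, and a median of 0.65 over 28. The other members had medians between -0.23 for Arrdc2 and 0.27 for Fkbp5. With the 17 other clock genes, Per1 had a median of 0.13, from Per2 at 0.67 and Cry2 at 0.63 down to Rorb at -0.41 and Arntl at -0.44, the activator of the clock.

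**Figure D5:**
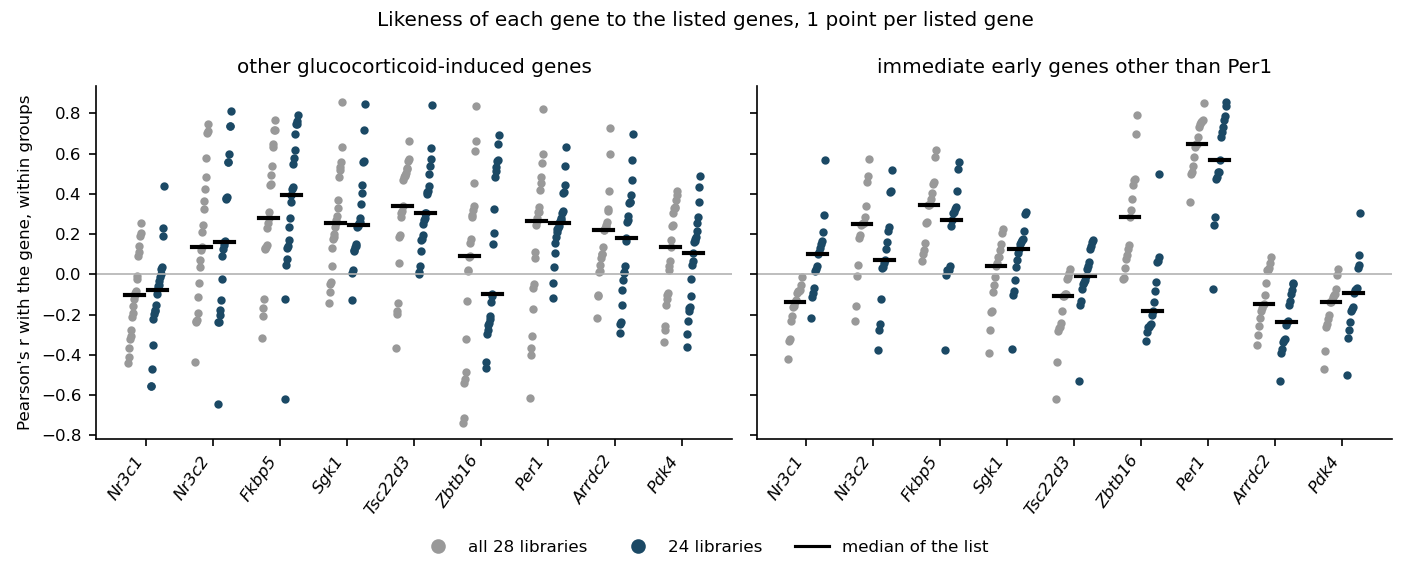
Pearson's r within groups (y axis) of each member with the 21 other glucocorticoid-induced genes on the left and the 15 immediate early genes on the right, 1 point per listed gene, over 28 libraries in grey and 24 in dark blue, with a bar at the median. Tsc22d3 has all 21 dark points above 0 on the left, and Per1 stands highest on the right with a median of 0.57.

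Sums of some marker lists varied with the receptor genes, while the single markers of a list did not always share that direction. Each member was set against the summed CPM of each of the 13 marker lists, 117 relations in all, by the same within-group measure and with p-values adjusted over them. Nr3c2 went with the summed CA2 pyramidal markers at r = 0.82 over 24 libraries (rho = 0.84, adjusted permutation p = 0.00234 and 0.00117), with the dentate granule markers at 0.75 (rho = 0.71, adjusted permutation p = 0.00468 and 0.0175) and with the CA1 markers at 0.74 (rho = 0.75, adjusted permutation p = 0.00409 and 0.00468). A sum is carried by its most abundant genes: singly, 4 of the 6 CA2 markers, all 6 dentate markers and 4 of the 6 CA1 markers had a positive r with Nr3c2 over 24 libraries, with medians of 0.15, 0.62 and 0.61, and the CA2 markers ran from -0.52 to 0.87. Over 28 libraries the sums gave 0.72, 0.67 and 0.69, and without the 2 libraries farthest in each marker sum 0.60, 0.57 and 0.63. Fkbp5 had r = 0.75 with the summed CA2 markers (rho = 0.68, adjusted permutation p = 0.00409 and 0.0250) and 0.73 with the CA1 markers (rho = 0.69, adjusted permutation p = 0.00409 and 0.0175) over 24 libraries. The sums gave 0.68 and 0.69 over 28, and 0.57 and 0.73 without the 2 farthest. Singly, 4 of the 6 CA2 markers were positive with a median of 0.10, from -0.40 to 0.78, and 4 of the 6 CA1 markers with a median of 0.59. The part of field content in the relation of Nr3c2 and Fkbp5 was not tested. Nr3c1 went with the summed astrocyte markers, at r = 0.64 over 24 libraries (rho = 0.67, adjusted permutation p = 0.0496 and 0.0253), 0.60 over 28 and 0.63 without the 2 farthest, while singly 4 of the 7 were positive with a median of 0.23, from -0.40 to 0.78. The 95th percentile of the r of Nr3c1 with all 17008 other genes was 0.65 over 24 libraries, above that 0.64. Per1 and Zbtb16 passed with the CA1 markers over 28 libraries only, at 0.65 and 0.59 (rho = 0.60 and 0.47, adjusted permutation p = 0.0177 and 0.0489 for r and 0.0427 and 0.167 for rho), and had 0.30 and 0.15 over 24 and 0.49 and 0.43 without the 2 farthest. Zbtb16 also passed with the erythroid markers over 28 libraries, at -0.60 (rho = -0.52, adjusted permutation p = 0.0200 and 0.113), and had -0.12 over 24 and -0.49 without the 2 farthest. Nr3c2 had 0.64 with the microglia markers over 24 libraries (rho = 0.62, adjusted permutation p = 0.0384 and 0.0633), 0.34 over 28 and 0.33 without the 2 farthest. Sgk1, Tsc22d3, Arrdc2 and Pdk4 passed with no marker list.

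The authors' deposited table of coexpression modules sorted 18014 genes into 14 modules and put the 9 members into 6. In the authors' deposited table Fkbp5 and Nr3c2 shared the module named brown, which holds 6.28% of the genes, with membership scores of 0.707 and 0.769. Sgk1 and Tsc22d3 shared purple with 14.8% of the genes, at 0.286 and 0.422 in the authors' deposited table, and Zbtb16 and Per1 shared green with 16.5%, at 0.385 and 0.754. The authors' deposited table placed Pdk4 in black, Arrdc2 in lightgreen and Nr3c1 in lightcyan. The modules come from the same study and are no independent evidence for the pairs above. The members' values in the authors' deposited table of adjusted expression, whose log base is not given in the sources used here, had r = 0.638 for Zbtb16 to 0.871 for Tsc22d3 with log2 CPM over the 28 libraries.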

How the data were processed

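RNA of mouse CA1 was sequenced in 28 libraries, 9 from transgenic mice with vorinostat, 9 from transgenic mice with vehicle and 10 from wildtype mice with vehicle. The kit was TruSeq RNA v2, which does not mark strand, with single 50-base reads, per the labels. The authors deposited a raw count per gene and library. Reads were aligned to mm10 with STAR 2.5.2b and counted with featureCounts of Subread 1.5.1 after FastQC 0.11.5, per the submitters' processing notes. The annotation release and the handling of multiply matching reads are not given in the sources used here. Adjusted expression, used here as a score of unknown log base, was deposited too, as were coexpression module membership scores, each with a p-value, from which module names and scores were read.

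Symbols were given to 48349 of 48709 gene identifiers, or 99.3%, with GENCODE vM21 (GRCm38), which also gave gene positions and exon lengths. Totals were 20319545 to 27552821 counts per library with vorinostat, 23437103 to 26732411 in transgenic vehicle and 20230085 to 33191857 in wildtype libraries. No 2 libraries of a group were identical or differed by less than counting error. No row without a gene and no column of another series was present. No batch is given in the labels.

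The counts were tested with edgeR 4.0.16 in R 4.3.3 (TMM scaling, robust quasi-likelihood test, filterByExpr keeping genes that reach 10 counts and a summed 15). All 28 libraries and 17009 genes entered 1 fit with 3 contrasts, p-values were adjusted by Benjamini-Hochberg over all genes, and the threshold was 0.05. The procedure was tested on simulated data. For likeness, log2 CPM with a prior count of 2 was centred within groups in Python 3.11.15 with pandas 2.3.3, numpy 2.4.6 and scipy 1.17.1, and figures were drawn with matplotlib 3.10.9. Alternatives were DESeq2 1.42.0, limma 3.58.1 with voom, other scalings and filters, fits of 2 groups, Xist as a covariate, replicate numbers as a block, and leaving out libraries. The mitochondrial share as a covariate, and Xist as a covariate without the 4 libraries that stand apart, were added after seeing the data, as were the lists without those 4.

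The members and all gene and marker lists were chosen with earlier results of these data known. Named beyond the members were, by a set rule, the 3 genes most like each member (10 for Fkbp5) and the highest and lowest 2 genes of each list in each comparison, except that a listed gene is not reported here.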

Additional observations from a re-analysis of the deposited data

Results flagged for a closer look

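In 30 sets of values, the 9 genes and the ratio of the receptors in each of 3 groups, the highest and the lowest library were compared with the rest of its group by Dixon's gap over range on log2 CPM (log2 of the ratio), and 4 stood apart. On the linear CPM scale the gaps differ, and so can the sets that stand apart. Chance flags about 1 in 20 groups. Pdk4 in vorinostat 7, at 23.2 CPM, lay above the other 8 vorinostat libraries with a gap of 0.573 of the log2 range (critical value 0.493). Zbtb16 in transgenic vehicle 5, at 76.7 CPM, lay below the other 8 transgenic vehicle libraries with a gap of 0.576 of the log2 range. Per1 in wildtype vehicle 2, at 64.7 CPM, and Nr3c2 in wildtype vehicle 1, at 109.95 CPM, lay below the other 9 wildtype libraries with gaps of 0.753 and 0.518 of the log2 range (critical value 0.466). Vorinostat 7 and wildtype vehicle 2 are among the 4 libraries with over 5% mitochondrial counts.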

How the results depend on the processing

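No member was called under any of the 13 alternatives or without any 1 library, with a smallest adjusted p of 0.179. Of 351 log2 fold changes under the alternatives, 33 had the opposite sign to the values above, at most 0.254 in size. Without the 4 libraries with high mitochondrial counts, vorinostat against transgenic vehicle gave 0.0449 for Nr3c2, -0.191 for Sgk1, -0.0986 for Tsc22d3 and -0.00917 for Pdk4, and vorinostat against wildtype gave -0.253 for Sgk1, -0.0981 for Tsc22d3, 0.0969 for Zbtb16 and 0.0283 for Per1. With Xist as a covariate as well, the first comparison gave 0.116 for Nr3c2, -0.137 for Sgk1, -0.104 for Tsc22d3 and -0.0607 for Pdk4, the second -0.254 for Sgk1, -0.0984 for Tsc22d3, 0.0971 for Zbtb16, 0.0253 for Per1 and 0.00365 for Fkbp5, and transgenic against wildtype on vehicle -0.0583 for Nr3c2. With the mitochondrial share as a covariate, the first gave 0.00455 for Nr3c2, -0.0821 for Sgk1 and -0.0237 for Tsc22d3, the second -0.0781 for Sgk1 and 0.0368 for Zbtb16, and the vehicle comparison 0.00399 for Sgk1. With Xist alone, Nr3c2 gave 0.0249, -0.000523 and -0.0255 in that order, and for vorinostat against wildtype -0.00217 with DESeq2, -0.00214 with RLE scaling and -0.00101 with no filter. The cause was not tested. Whether the replicate numbers pair the libraries of different groups is not settled by these values. Of pairs with the same number, 7 of 27 in the titles and 7 of 26 in the descriptions correlated above 0.1. Their median r was 0.06 and 0.05, against -0.01 in the other pairs for both. With the title number as a replicate block, Sgk1 gave 0.0177 between the vehicle groups and 1 gene was called for vorinostat against wildtype. With the description number as a block, Nr3c2 gave 0.0310 for vorinostat against transgenic vehicle and Tsc22d3 -0.00261 between the vehicle groups. DESeq2 called 1 gene for vorinostat against transgenic vehicle. Of the 36 pairs, 10 passed over 28 libraries, 3 over 24 and 4 without the 2 farthest, and Zbtb16 with Per1 had -0.0937 over 24.

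Leaving out 1 library at a time, 56 of 756 values changed sign. The ranges for transgenic against wildtype on vehicle were -0.0129 to 0.0461 for Nr3c1, -0.0461 to 0.0590 for Nr3c2, -0.0874 to 0.0879 for Sgk1, -0.0163 to 0.0748 for Tsc22d3 and -0.116 to 0.00816 for Arrdc2. For vorinostat against transgenic vehicle they were -0.0496 to 0.0211 for Nr3c2, -0.110 to 0.129 for Sgk1 and -0.00980 to 0.0997 for Tsc22d3, and for vorinostat against wildtype -0.0619 to 0.0433 for Nr3c2, -0.0802 to 0.00481 for Fkbp5, -0.114 to 0.133 for Sgk1 and -0.105 to 0.00553 for Zbtb16. Genes called ranged from 0 to 1 for vorinostat against transgenic vehicle (1 without vorinostat 3), from 0 to 3 for vorinostat against wildtype (3 without wildtype vehicle 2 and 1 without wildtype vehicle 5) and stayed at 0 between the vehicle groups.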
